A study of Macaca mulatta with 16 samples.

Results

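Alveolar type 1 (AT1) cell genes were measured in fetal lung tissue of 16 rhesus macaques by bulk RNA sequencing. The genes were AGER, HOPX, AQP5, PDPN, CAV1, RTKN2, CLIC5, EMP2 and MS4A15, taken by symbol as known AT1 markers, with earlier results of these data already known. Each of the 9 symbols matched a row of the deposited table of 22515 genes, and all 9 were among the 19199 genes that passed the filter on low counts.

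AT1 cells are thin, spread epithelial cells that cover most of the gas exchange surface of the lung. They arise from distal epithelial progenitors during late gestation, beside the cuboidal alveolar type 2 (AT2) cells that make and store surfactant. The transcription factor NKX2-1 acts in both cell types, and the YAP and TAZ (WWTR1) cofactors with their TEAD partners are known to promote the AT1 fate.

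The study asked how inflammation before birth, with or without a low antenatal corticosteroid dose, changes the fetal lung. Preterm control animals (n = 4) had no intervention and were delivered at 131 to 135 days of gestation. LPS 16h animals (n = 4) received 1 mg of lipopolysaccharide (LPS, a bacterial endotoxin) by intraamniotic injection at 129 to 130 days and were delivered 16 hours later, at 130 to 131 days. LPS 5d animals (n = 3) received the same injection at 126 to 129 days and were delivered 5 days later, at 131 to 134 days. LPS + Beta-Ac 5d animals (n = 3) received that injection at 126 to 127 days together with betamethasone-acetate, 0.125 mg/kg, a slowly released glucocorticoid given to the dam by intramuscular injection, and were delivered at 131 to 132 days. Term control animals (n = 2) had no intervention and were delivered at 156 and 157 days. Both 5-day groups received LPS, so betamethasone-acetate was measured here only on top of LPS. Each animal gave 1 library. Neither sex nor sequencing batch is given in the labels.

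Libraries held 20169363 to 48052891 counts, and the LPS 16h libraries, with 30596371 to 48052891, were the deepest. Their TMM scaling factors were 0.860 to 0.921, against 0.994 to 1.119 in the other groups. Levels are in CPM, a gene's counts relative to the TMM-scaled total of its library, and a gene was called changed where limma gave a Benjamini-Hochberg adjusted p under 0.05 over all tested genes and a fold change of at least 2. CPM is not divided by transcript length, so levels are compared between animals and not between genes. The lung markers were present in every group: SFTPC, surfactant protein C of AT2 cells, averaged 2945 ± 1012 CPM (SD, n = 4) in preterm controls and NKX2-1 averaged 96.7 ± 19.8 CPM (SD, n = 4). Preterm control 209 and term control 200 stood apart in the 8 airway epithelial genes, at 3.04 and 1.95 above the preterm control mean of their log2 CPM, where the other 14 animals ranged from -2.51 to 1.20. Calls that changed without either animal are given with the result. The 4 comparisons with preterm controls share those 4 animals. Where groups are said not to overlap, the share of all genes that did so was not counted.

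Most AT1 genes fell in the LPS 16h lungs. Of the 9 genes, 7 were called lower and 0 higher than in preterm controls, against 6.11% of all tested genes called lower and 8.25% called higher. The 7 were CLIC5, CAV1, EMP2, HOPX, RTKN2, AQP5 and MS4A15, and in each of them every LPS 16h animal was below every preterm control. The median log2 fold change over the 9 genes was -1.49, beside -0.09 over all tested genes. AGER and PDPN were not called. In a bulk sample, fewer AT1 cells and less of these RNAs per AT1 cell cannot be told apart. The ages at delivery of the groups met only at 131 days, and the part of age in this comparison was not tested.

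The genes of the AT1 surface and its fluid and ion handling included the steepest differences. CLIC5, a chloride intracellular channel family protein that associates with the cortical cytoskeleton, was measured at 803, 663, 851 and 849 CPM in the preterm controls. The LPS 16h animals had 235, 206, 189 and 195 CPM. The LPS 16h values lay close together and far under the lowest control, and the log2 fold change was -1.94 (standard error 0.114, limma adjusted p = 6.02e-09), or 3.83-fold lower.

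AQP5, the water channel of the apical AT1 membrane, was 74.1, 111, 77.8 and 132 CPM in preterm controls. In LPS 16h animals it was 11.8, 41.0, 11.4 and 17.0 CPM. A single LPS 16h animal stood above the other LPS 16h animals and still lay under the lowest control. AQP5 was 5.46-fold lower at 16 hours (log2 fold change -2.45, standard error 0.438, limma adjusted p = 0.000588).

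MS4A15, a membrane-spanning protein of the MS4A family, had few counts. It was at 3.79, 1.53, 4.61 and 6.08 CPM in preterm controls and 0.355, 0.425, 0.0463 and 0.0581 CPM in LPS 16h animals, which stand for 10, 16, 2 and 2 counts. All LPS 16h animals were under the lowest control, at the edge of detection. Its log2 fold change of -3.95 (standard error 0.638, limma adjusted p = 0.000236) rests on a mean of 7.5 counts at 16 hours, and it moved from -4.58 to -3.91 with the prior count, scaling and other settings.

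AGER, the receptor for advanced glycation end products and a very abundant AT1 surface protein, was 511, 1119, 954 and 912 CPM in preterm controls. In LPS 16h animals it was 416, 576, 459 and 578 CPM. The lowest control lay between the LPS 16h values, so the groups overlapped. The log2 fold change was -0.74 (standard error 0.324, 95% interval -1.44 to -0.05, limma adjusted p = 0.0852), and without preterm control 092 it was -0.98 (limma adjusted p = 0.0283), still under the fold limit. In the annotation of another rhesus assembly (RefSeq), AGER overlaps the protein-coding gene PBX2, and reads of the shared stretch could have been assigned to either.

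Genes of caveolae and membrane microdomains fell as well. CAV1, the main scaffold protein of caveolae, which AT1 cells and endothelial cells both make in quantity, was 2165, 2127, 2276 and 1680.3 CPM in preterm controls. It was 686, 659, 544 and 667 CPM in LPS 16h animals, 3.22-fold lower (log2 fold change -1.69, standard error 0.141, limma adjusted p = 2.53e-07). The highest LPS 16h animal was far below the lowest control. EMP2, a membrane protein that influences caveolins and integrins at the cell surface, was 131, 132, 121 and 147 CPM in preterm controls and 56.7, 34.6, 45.7 and 55.6 CPM in LPS 16h animals. Its groups were also well apart, and its log2 fold change was -1.49 (standard error 0.160, limma adjusted p = 3.63e-06).

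The nuclear and signalling members followed. HOPX, a homeodomain cofactor that does not bind DNA itself, was 188, 142, 152 and 139.6 CPM in preterm controls. In LPS 16h animals it was 52.6, 95.2, 45.8 and 60.2 CPM, and its log2 fold change was -1.34 (standard error 0.206, limma adjusted p = 0.000123). LPS 16h animal 029 had the highest HOPX, AQP5 and MS4A15 of its group, and also the lowest EMP2 and PDPN. RTKN2, an intracellular signalling protein, was 57.9, 90.2, 95.8 and 125 CPM in preterm controls and 41.0, 37.6, 35.9 and 42.8 CPM in LPS 16h animals. Its LPS 16h values were tightly grouped while the controls were spread, and the log2 fold change was -1.18 (standard error 0.178, limma adjusted p = 9.82e-05).

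PDPN (podoplanin), a mucin-type glycoprotein also made by lymphatic endothelium, mesothelium and some fibroblasts, differed from this pattern in its values. It was 127, 89.2, 116 and 145 CPM in preterm controls and 123, 90.0, 153 and 146 CPM in LPS 16h animals. The groups covered almost the same range. The log2 fold change was 0.10 (standard error 0.178, 95% interval -0.28 to 0.47, limma adjusted p = 0.708), and it was -0.11 when libraries were scaled by their totals alone. The interval does not reach a fold change of 2 in either direction.

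**Figure D1:**
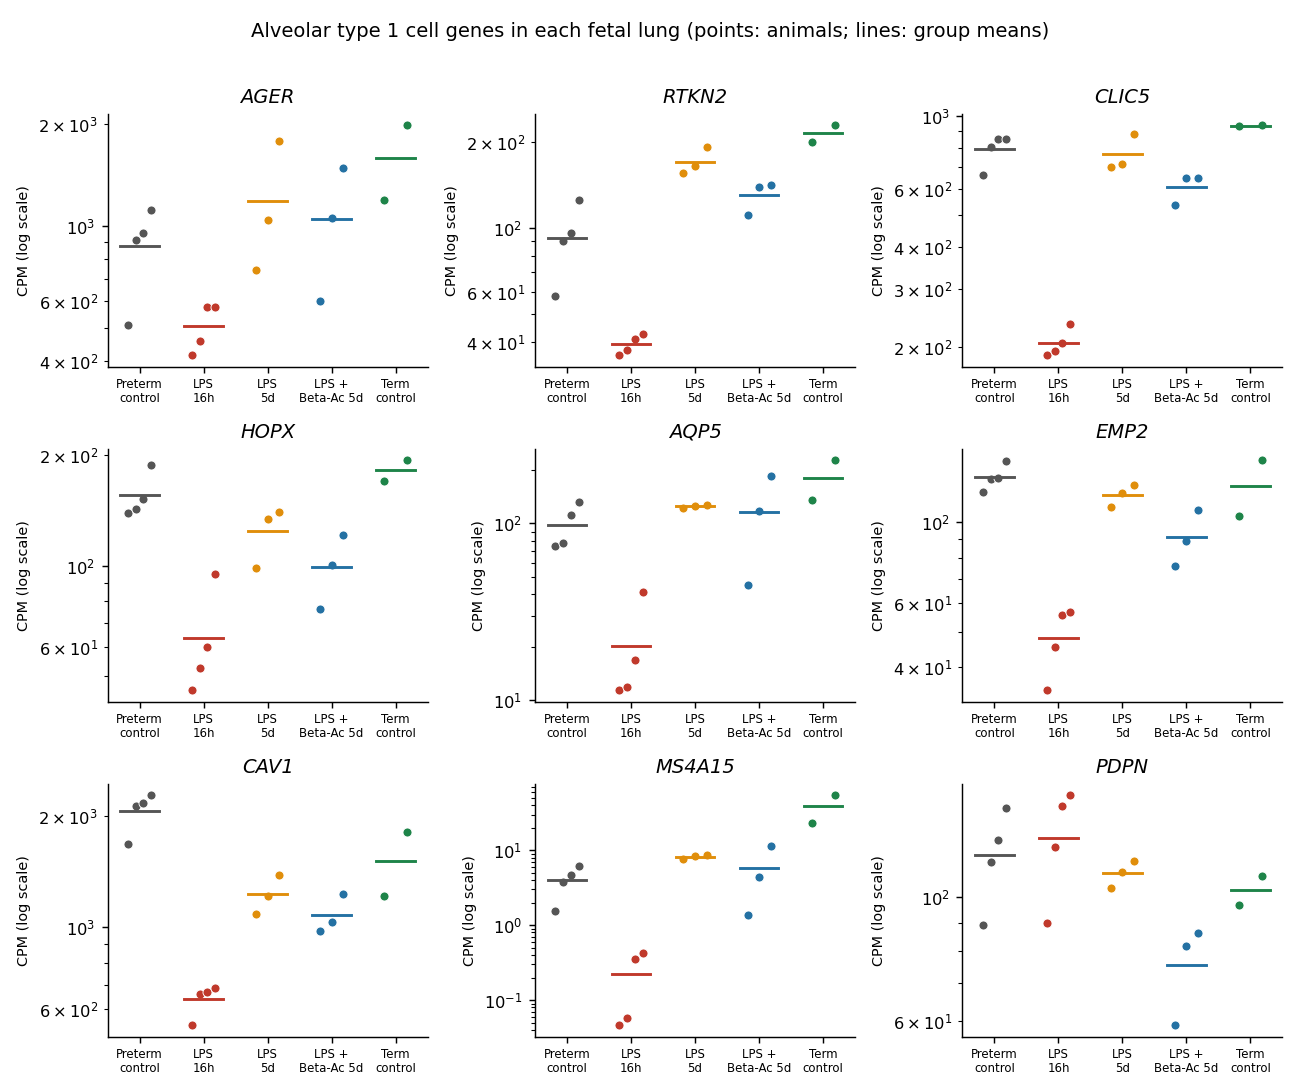
Level of each of the 9 AT1 genes in every animal, in CPM on a log axis, by group; points are animals and lines are group means. In CLIC5, CAV1, EMP2, HOPX, RTKN2, AQP5 and MS4A15 the 4 LPS 16h animals lie below all 4 preterm controls, while PDPN has LPS 16h values from 90.0 to 153 CPM beside 89.2 to 145 CPM in preterm controls.

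The same direction was seen in most of 25 further AT1 genes, with 21 lower and 4 higher at 16 hours by log2 fold change. The list includes basement membrane collagens, junction proteins and secreted factors, and all 25 genes passed the filter. At 16 hours 13 of the 25 were called lower and 1 higher than in preterm controls. Of all tested genes 6.11% were called lower and 8.25% higher. The median log2 fold change over the 25 genes was -1.03. By adjusted p alone 17 of the 25 were lower and 3 higher. TNNC1, a troponin C isoform known as an AT1 marker, had the steepest change, from 39.9 to 7.78 CPM (log2 fold change -2.51, limma adjusted p = 5.4e-05). SPOCK2, a secreted proteoglycan, went from 409.9 to 99.9 CPM (log2 fold change -2.11, limma adjusted p = 6e-05). CYP4B1, a cytochrome P450 enzyme, and SEMA3B, a secreted semaphorin, had log2 fold changes of -2.08 and -1.85. ITGB6, the beta chain of an epithelial integrin and the gene called higher, went from 97.8 to 198 CPM (log2 fold change 1.02). ITGB6 and the genes of this list named below, other than TNNC1, SPOCK2, CYP4B1 and SEMA3B, were singled out after their values were seen. CAV2, the caveolin that pairs with CAV1, changed by -1.75 on the log2 scale, and the alpha 3 and alpha 4 chains of collagen IV of the thin alveolar basement membrane, COL4A3 and COL4A4, changed by -1.67 and -1.54.

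**Figure D2:**
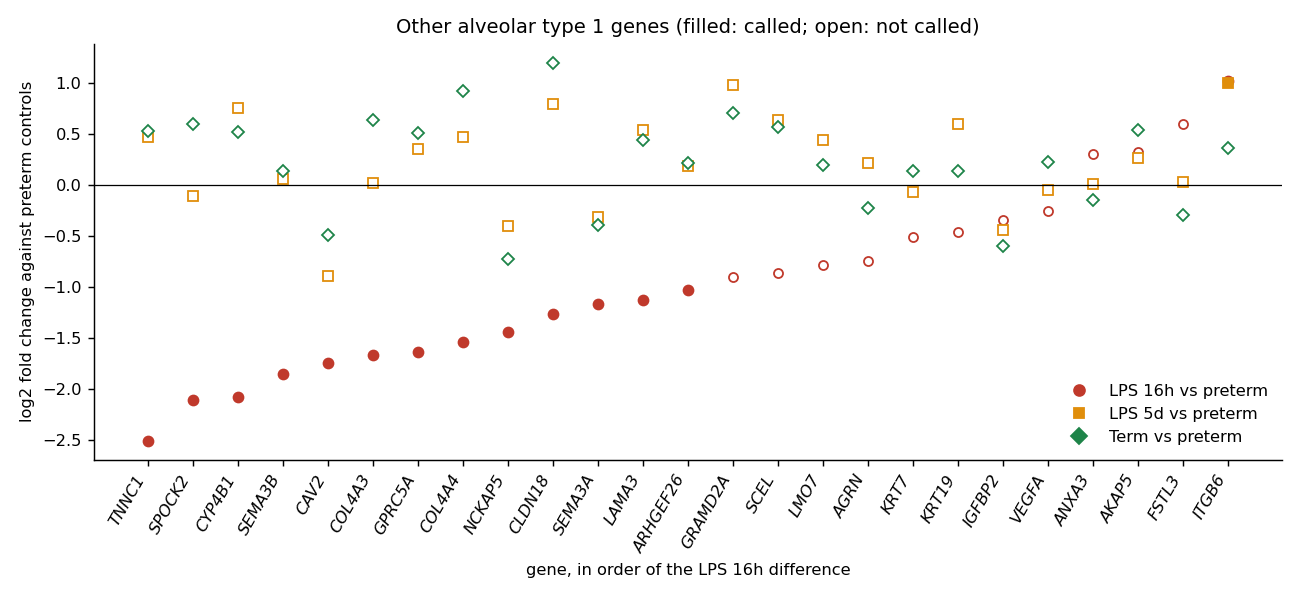
log2 fold change against preterm controls for 25 further AT1 genes at LPS 16h, LPS 5d and term, in order of the LPS 16h value; filled symbols are called and open symbols are not. At LPS 16h 13 genes are called lower, from TNNC1 at -2.51 to ARHGEF26 at -1.03, and ITGB6 is the gene called higher; at LPS 5d ITGB6 alone is called and at term 0 genes are.

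Of 8 regulators of the AT1 fate, TEAD4 and KLF5 matched no row by symbol, so they were not tested. The other 6 passed the filter, and 1 was called lower at 16 hours, where 6.11% of all genes were. TBX2, a T-box transcription factor, went from 400.3 to 153 CPM (log2 fold change -1.39, limma adjusted p = 1.62e-06). NKX2-1 changed by -0.55 on the log2 scale (limma adjusted p = 0.0228) and did not reach the fold limit. YAP1, WWTR1, TEAD1 and GATA6 were not called. Their LPS 16h means were 81.7, 110, 19.6 and 28.7 CPM, against 83.0, 126, 17.0 and 32.5 CPM in preterm controls. The part of other cell types in the TBX2 value was not tested. A list of 8 genes covered the transitional alveolar epithelial state, in which AT2 cells on their way to AT1 cells have been described. KRT8 and KRT17 of this list matched no row by symbol, so they were not tested. The other 6 passed the filter, and 3 of them were called higher, where 8.25% of all genes were. CDKN1A, a cyclin-dependent kinase inhibitor, rose from 22.5 to 74.2 CPM (log2 fold change 1.69), and AREG, an EGF receptor ligand, from 1.19 to 4.03 CPM (2.84-fold). LGALS3, a galectin that macrophages also make, rose by 1.24 on the log2 scale at 16 hours. Of the 6 tested genes of this list, 5 had a log2 fold change above 0. CLDN4 had one below 0 (-0.24), with 97.1 CPM against 111 CPM in preterm controls. The part of other cell types in the values of this list was not tested.

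Markers of other cell types moved differently in the same lungs. Of 14 AT2 genes, 7 were called higher and 0 lower at 16 hours, with a median log2 fold change of 1.01. They included LAMP3 of the lamellar bodies (log2 fold change 2.22, limma adjusted p = 0.000706), the protease CTSH (2.16, limma adjusted p = 7.14e-07) and ABCA3, the lamellar body lipid transporter (1.99, limma adjusted p = 4.83e-07). Of 10 genes shared by epithelial cells, 1 was called higher and 0 lower, with a median of -0.08. Taken per animal as a mean over the list relative to the preterm control mean, the 9 AT1 genes stood at -1.90 to -1.39 in the LPS 16h animals. In preterm controls the same mean ran from -0.14 to 0.22. AT1 minus AT2 means were -2.92 to -2.13 and AT1 minus pan-epithelial means -1.98 to -1.59 in the 4 LPS 16h animals, so in these animals the AT1 genes were lower relative to either list than in any preterm control, where these differences ran from -0.28 to 0.28 and -0.26 to 0.12.

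Several members are also made outside the epithelium, so the lists for those cells stand beside them. Of 14 blood endothelial genes 2 were called lower at 16 hours, KDR (log2 fold change -1.18) and EMCN (-1.01), with a median of -0.25. Of 6 lymphatic endothelial genes 0 were called, with a median of -0.46, and 2 were lower by adjusted p alone. By that rule 3824 of all 19199 genes were lower and 3559 higher. Of 5 mesothelial genes 4 passed the filter, with LRRN4 called higher (log2 fold change 2.54) and UPK3B lower (-2.08). Of 8 fibroblast genes 2 were called lower, TCF21 (-1.94) and LUM (-1.12), with a median of -0.77. The part of these cell types in the values of CAV1, CLIC5, EMP2 and PDPN was not tested.

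Myeloid markers rose in the same animals. Of 10 such genes 8 were called higher at 16 hours, and their summed level was 2325 to 2928 CPM, against 164 to 274 CPM in preterm controls. S100A9 and S100A8, the calprotectin subunits of neutrophils, had log2 fold changes of 7.79 and 7.68. Of 8 T and NK cell genes 2 were called higher, with a median of 0.66, and of 8 airway epithelial genes 0 were called. None of the 10 myeloid genes was lower at 16 hours, and the part of this change in the AT1 values was not tested.

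**Figure D3:**
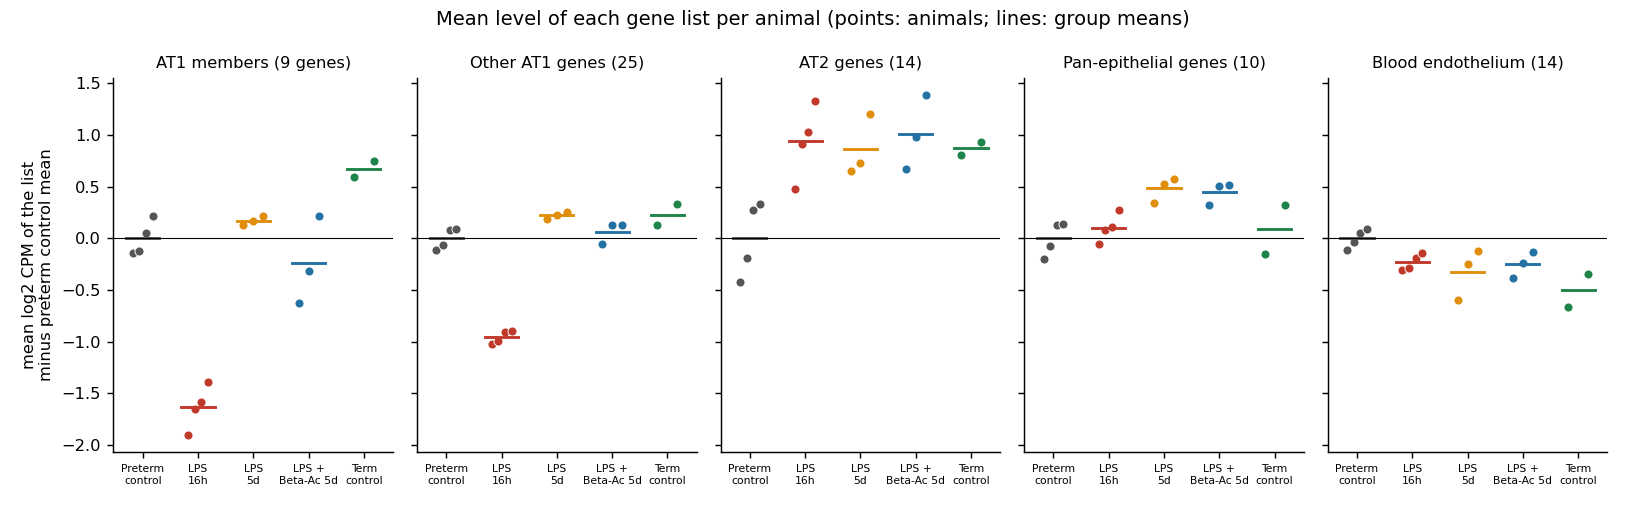
Mean log2 CPM of each gene list per animal, relative to the preterm control mean; points are animals and lines are group means. The LPS 16h animals lie from -1.90 to -1.39 for the 9 AT1 genes and from -1.02 to -0.89 for the 25 further AT1 genes, from 0.48 to 1.33 for AT2 genes, and from -0.06 to 0.28 for pan-epithelial genes.

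At 5 days after LPS the AT1 genes were nearer to the preterm controls. Of the 9 genes 0 were called by limma and 0 by limma-voom, against 2.6% of all genes called higher and 2.24% called lower, and the median log2 fold change was -0.05. At an unadjusted p under 0.05 there were 2 of the 9, a smaller share than the 28.0% of all genes. By adjusted p alone, which 14.7% of all genes passed in either direction, RTKN2 was higher and CAV1 was lower. RTKN2 was 155, 193 and 165 CPM in LPS 5d animals, all above the highest preterm control (log2 fold change 0.93, standard error 0.192, limma adjusted p = 0.00468). CAV1 was 1214, 1088 and 1386 CPM, all below the lowest preterm control (log2 fold change -0.74, standard error 0.152, limma adjusted p = 0.00468). Both passed that rule with each animal left out in turn. Neither reached the fold limit, and the call of RTKN2 turned on single animals, with 1.10 without preterm control 209 and 1.03 without LPS animal 239.

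The other members were close to the controls or spread at 5 days. CLIC5 was 880.2, 714 and 698 CPM and differed by -0.05 on the log2 scale, with a 95% interval of -0.31 to 0.21. AQP5 was 122, 125 and 128 CPM, inside the control range, with an interval of -0.63 to 1.40. EMP2 was 110.3, 120.5 and 126 CPM, with an interval of -0.53 to 0.21. These intervals exclude a 2-fold loss of CLIC5, AQP5 and EMP2. HOPX was 98.3, 134 and 140.0 CPM and overlapped the controls (log2 fold change -0.33, 95% interval -0.81 to 0.14), and PDPN was 111, 116 and 104 CPM (-0.09). AGER was 1788, 1039 and 741 CPM, a wider range than in the controls, with 0.41 (95% interval -0.34 to 1.15). MS4A15 was 8.68, 7.75 and 8.32 CPM, above all 4 controls, yet its log2 fold change of 1.19 had a standard error of 0.689 (limma adjusted p = 0.289).

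The 2 times after LPS were also compared with each other. Of the 9 genes 7 were called lower at 16 hours than at 5 days, against 6.66% of all genes called lower and 7.94% called higher. In these 7 genes, AGER, HOPX, AQP5, RTKN2, CLIC5, EMP2 and MS4A15, the groups did not overlap. RTKN2 differed by -2.11 (standard error 0.192) and CLIC5 by -1.89 (standard error 0.123) on the log2 scale. CAV1 differed by -0.94 (limma adjusted p = 0.000213), just under the fold limit, and PDPN by 0.18. The call of AGER was lost without LPS 5d animal 239 (-0.81, limma adjusted p = 0.11). The call of HOPX, at -1.01, lay at the fold limit and was lost without LPS 16h animal 026 or 035, or without LPS 5d animal 240 or 242 (-0.95 to -0.88). Among the 25 further AT1 genes 15 were called lower at 16 hours and 0 higher, with a median of -1.22.

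In the further AT1 genes at 5 days against preterm controls 1 was called, ITGB6 (log2 fold change 1.01), with a median of 0.22. The AT2 genes were still high, with 6 of 14 called higher and 1 lower and a median of 0.98. AT1 minus AT2 means ran from -1.03 to -0.44 in the LPS 5d animals. Blood endothelial genes had 0 of 14 called and a median of -0.28, and myeloid genes 5 of 10 called higher.

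With betamethasone-acetate added to LPS, 0 of the 9 genes were called against preterm controls by limma and 0 by limma-voom, where 4.05% of all genes were called higher and 2.44% lower. By adjusted p alone CAV1, PDPN, EMP2 and CLIC5 were lower, a direction that 10.2% of all genes showed by that rule, and the median was -0.37. At an unadjusted p under 0.05, 5 of the 9 were lower and 1 was higher, where 30.1% of all genes passed in either direction. Of the 4 genes, CAV1 alone kept an adjusted p under 0.05 with each of the 7 animals left out in turn. PDPN, EMP2 and CLIC5 each kept it in 1 of 7 such fits, PDPN and CLIC5 without preterm control 101 and EMP2 without LPS + Beta-Ac animal 249, and without preterm control 209 their adjusted p was 0.0705, 0.0793 and 0.101. CAV1 was 975, 1226 and 1031 CPM, all below the lowest preterm control (log2 fold change -0.93, standard error 0.152, limma adjusted p = 0.000765). It passed the fold limit without preterm control 209 (-1.03) or without LPS + Beta-Ac animal 249 (-1.01). PDPN was 81.7, 86.5 and 58.9 CPM, again below every preterm control (log2 fold change -0.65, standard error 0.192, limma adjusted p = 0.0283).

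EMP2 and CLIC5 had smaller differences. EMP2 was 89.1, 108 and 76.1 CPM (log2 fold change -0.55, limma adjusted p = 0.0372), and CLIC5 was 646, 649 and 537 CPM (-0.37, limma adjusted p = 0.0487). Both had all 3 animals below the lowest control. The adjusted p of both, and that of PDPN, depended on the setting, reaching 0.0517 for EMP2, 0.0755 for CLIC5 and 0.0504 for PDPN with all animals kept. HOPX, at 101, 121 and 76.1 CPM, also lay below every control, with -0.66 (limma adjusted p = 0.0531, and 0.0485 without LPS + Beta-Ac animal 249), and RTKN2, at 141, 139 and 111 CPM, overlapped them with 0.55 (limma adjusted p = 0.064, and 0.0105 without preterm control 209). AGER, AQP5 and MS4A15 were spread among these 3 animals. AGER was 1055, 1485 and 599 CPM, AQP5 was 44.7, 185 and 117 CPM, and MS4A15 was 4.45, 11.4 and 1.35 CPM. The same animal, LPS + Beta-Ac 249, was highest in all 3, and without it the log2 fold changes turned from 0.22 to -0.05 for AGER, from 0.04 to -0.38 for AQP5, and from 0.20 to -0.50 for MS4A15.

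Other cell type lists also moved in the LPS + Beta-Ac animals against preterm controls. Of 10 myeloid genes 9 were called higher, with a median of 2.34 and a summed level of 493 to 822 CPM. Of 14 AT2 genes 8 were called higher and 1 lower, with a median of 1.08, of 8 fibroblast genes 2 were called lower, with a median of -0.74, and of 14 blood endothelial genes 0 were called, with a median of -0.31. Of the 25 further AT1 genes 1 was called, CAV2 (-1.02), and their median was 0.06. The part of these lists in the AT1 values was not tested.

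LPS + Beta-Ac was then compared with LPS alone at the same time. Of the 9 genes 0 were called by limma and 0 by limma-voom, as against 0.0885% of all genes in either direction. All 9 log2 fold changes were below 0, with a median of -0.34 beside -0.0003 over all tested genes, and none had an adjusted p under 0.05 by limma. The 9 genes were measured in the same animals. AGER turned above 0 without LPS 5d animal 239 or LPS + Beta-Ac animal 255, and AQP5 without LPS + Beta-Ac animal 248. At an unadjusted p under 0.05, 3 of the 9 were lower, namely PDPN, CLIC5 and EMP2, where 4.81% of all genes passed in either direction. PDPN had -0.56 (standard error 0.205, 95% interval -1.002 to -0.13, limma adjusted p = 0.705), and its 3 LPS + Beta-Ac animals were below the 3 LPS 5d animals. CLIC5, EMP2 and RTKN2 also had groups that did not overlap, with log2 fold changes of -0.32, -0.40 and -0.39. How many of all genes had groups apart in this comparison was not counted, so no weight is placed on it. MS4A15 had the widest interval, -2.57 to 0.59, around -0.99. Of the 25 further AT1 genes 0 were called in this comparison, with a median of -0.09, and of the 14 AT2 genes 0 were called, with a median of 0.13. All 10 myeloid genes had values above those of LPS alone (log2 fold changes 0.59 to 2.09, median 1.24) and all 8 airway genes had values below (median -1.43), with 0 called in either list. The part of these lists in the AT1 values was not tested.

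**Figure D4:**
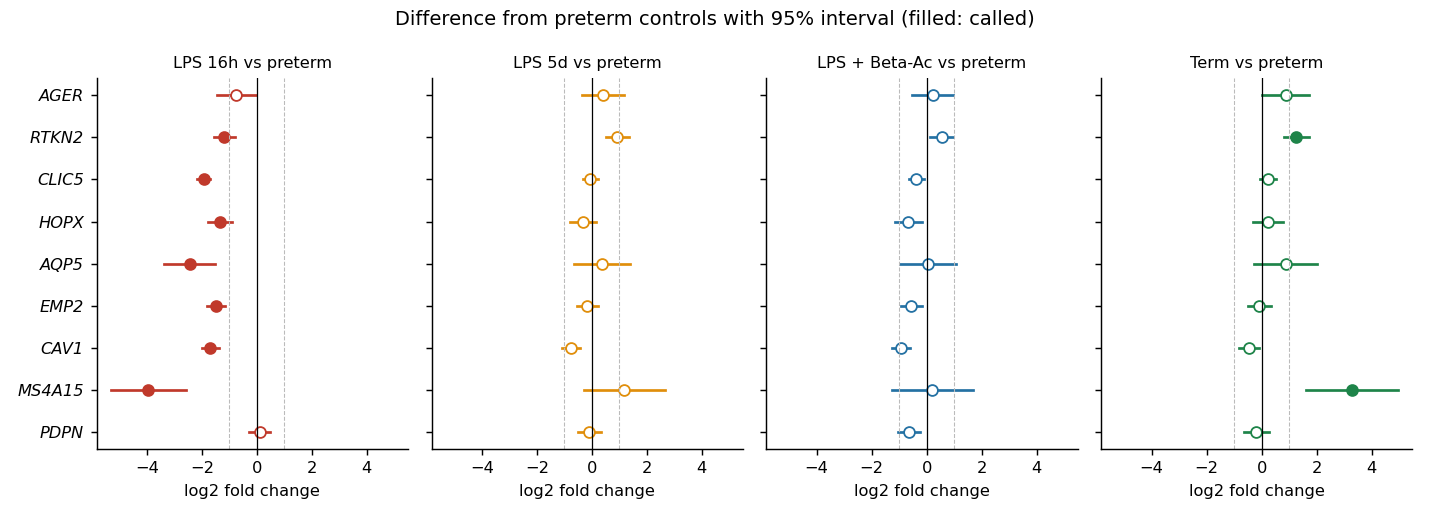
log2 fold change of each AT1 gene against preterm controls in 4 comparisons, with 95% intervals from limma; filled points are called and dashed lines mark a 2-fold difference. At LPS 16h 7 genes are called lower, at LPS 5d and LPS + Beta-Ac 0 are called, and at term RTKN2 and MS4A15 are called higher.

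Between preterm and term, 2 of the 9 genes were called higher and 0 lower, where 1.11% of all genes were called higher and 0.953% lower. RTKN2 was 201 and 229 CPM in the term animals, above all preterm controls (log2 fold change 1.27, standard error 0.217, limma adjusted p = 0.00712). MS4A15 was 54.7 and 23.4 CPM, also above all preterm controls (log2 fold change 3.30, standard error 0.781, limma adjusted p = 0.0337). The call of MS4A15 was lost without any 1 of preterm controls 092, 101 and 113 (adjusted p = 0.0627 to 0.0709) and without either term animal, with 2.69 without term control 200 and 3.91 without term control 201. Both calls were lost when only the preterm and term animals entered the fit.

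The other genes were not called at term with 2 animals. AGER was 1982 and 1195 CPM (log2 fold change 0.87, 95% interval 0.03 to 1.72, limma adjusted p = 0.249), and AQP5 was 228 and 136 CPM (0.88, 95% interval -0.28 to 2.03). In both genes the term animals lay above all preterm controls. CLIC5 was 935 and 929.8 CPM (0.24), HOPX was 194 and 170.0 CPM (0.23), and PDPN was 96.8 and 109 CPM (-0.19). CAV1 was 1217 and 1804 CPM, with -0.47 (limma adjusted p = 0.148), and EMP2 was 104 and 148 CPM (-0.09). The median over the 9 genes was 0.24 and the median over the 25 further AT1 genes 0.23, with 0 of the 25 called. The term animals had 13 of 14 blood endothelial genes on the lower side, with 1 called, CDH5 (-1.22). They had 13 of 14 AT2 genes on the higher side, with a median of 0.83 and 1 called, CTSH (1.33). The part of the endothelial share in the CAV1 value was not tested.

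Against the term animals, limma called 0 of the 9 genes in LPS 5d animals and 0 in LPS + Beta-Ac animals, where 0.0625% and 0.568% of all genes were called in either direction. With limma-voom the counts were 0 and 1. At an unadjusted p under 0.05, 1 gene was lower in LPS 5d animals, MS4A15, and 6 were lower in LPS + Beta-Ac animals, HOPX, CAV1, RTKN2, CLIC5, EMP2 and MS4A15. Of all 19199 genes, 2115 and 2786 passed that limit in either direction, so the share for LPS 5d was near the background. MS4A15 differed by -2.11 after LPS (95% interval -3.87 to -0.35) and by -3.10 after LPS + Beta-Ac (95% interval -4.86 to -1.34). CLIC5 differed by -0.62 after LPS + Beta-Ac (standard error 0.147, limma adjusted p = 0.069). The limma adjusted p of every other member in these 2 comparisons was above that of CLIC5.

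The order of the group means differed between the genes. RTKN2 ran from term at 215 ± 19.9 CPM (SD, n = 2) through LPS 5d at 171 ± 19.4 (SD, n = 3), LPS + Beta-Ac at 131 ± 16.7 (SD, n = 3) and preterm at 92.3 ± 27.6 (SD, n = 4) to LPS 16h at 39.3 ± 3.13 (SD, n = 4). Of its neighbours in this order, LPS 5d and term, LPS + Beta-Ac and LPS 5d, and LPS + Beta-Ac and preterm were not told apart by the test. CLIC5 ran from term at 932 ± 3.76 CPM through preterm at 792 ± 88.7, LPS 5d at 764 ± 101 and LPS + Beta-Ac at 611 ± 63.9 to LPS 16h at 206 ± 20.3, and its first 4 means were not told apart from their neighbours by the test. CAV1 was highest in preterm controls, at 2062 ± 262 CPM, followed by term at 1510 ± 415, LPS 5d at 1230 ± 149, LPS + Beta-Ac at 1077 ± 132 and LPS 16h at 639 ± 64.3. The test did not tell its first 4 means apart from their neighbours. PDPN had its lowest mean in LPS + Beta-Ac animals, at 75.7 ± 14.7 CPM, and LPS 16h and preterm at the top, at 128 ± 28.4 and 119 ± 23.2. HOPX and EMP2 had LPS + Beta-Ac as the next lowest mean above LPS 16h, at 99.3 ± 22.7 and 91.1 ± 16.1 CPM, and AGER, AQP5 and MS4A15 had preterm controls there, at 874 ± 258, 98.6 ± 27.5 and 4.003 ± 1.90 CPM. The test did not tell LPS + Beta-Ac from LPS 5d in HOPX and EMP2, or from preterm in AGER, AQP5 and MS4A15. In PDPN it told neither LPS + Beta-Ac from term nor LPS 16h from preterm.

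Across the 16 animals most members varied together, as a description over animals that share groups and libraries. Pearson's r of a gene with the mean of the other 8 members was 0.956 for CLIC5, 0.910 for MS4A15 and 0.907 for EMP2. It was 0.863 for HOPX, 0.852 for AQP5, 0.822 for RTKN2, 0.781 for CAV1 and 0.715 for AGER, and for PDPN it was -0.254. With the group means taken out, the same r ran from 0.07 for CAV1 to 0.68 for MS4A15, lower than over all animals for every member but PDPN, where it was 0.16.

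The genes outside the list with a course most like the member mean over the 16 animals were TIMP3, PTPRQ, FLVCR2, WSCD2, TMSB15B, IFT80, SPOCK2, WNT7A, ALPP and DSCAML1, with r from 0.945 to 0.969. With the group means taken out, their r ran from 0.434 for TIMP3 to 0.848 for FLVCR2. TIMP3, a matrix-bound inhibitor of metalloproteinases, had the highest r over all animals, and its log2 fold change at 16 hours was -1.42. PTPRQ, a receptor-type phosphatase, had r = 0.967 and changed by -2.85, and WNT7A, a secreted Wnt ligand, had r = 0.946 and changed by -3.60. SPOCK2 was also among the 25 further AT1 genes. At LPS 5d, 0 of these 10 genes had an adjusted p under 0.05. The genes were picked by their course over these same animals. Their fall at 16 hours and their values near the controls at LPS 5d therefore largely followed from that choice.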

How the data were processed

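Lung RNA of 16 fetuses was sequenced as 75 bp paired-end reads, 1 library per animal. The authors used kallisto to assign reads to the rhesus genome (MMUL10, Mmul_10), summarised them per gene with tximport, and compared groups with DESeq2. The deposited values are whole-number counts per Ensembl gene, neither normalised nor filtered. They are recorded as unit other, because the column names are bare numbers, so no count model was run here. For tool versions, the annotation release and any rounding of estimated counts, the entry is "not given in the sources used here". A column kit is named in the methods and a phenol reagent in the labels.

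Of 22515 gene IDs, 17256 matched a symbol in the gene name table, and 629 genes had no count. Genes were kept with at least 0.371 CPM (10 counts in the median library) in 2 or more animals and 15 counts in all, which left 19199. Counts were TMM-scaled (trims of 30% and 5%), put on a log2 CPM scale after adding a prior count of 2, and fitted with limma 3.58.1 (trend and robust options) in R 4.3.3, with 1 mean per group over all 16 animals. Fold changes are on this scale, so the prior count shrinks those of low genes. Tests were two-sided, and p-values were adjusted over all tested genes. The fit was tested on simulated data, with changes larger than the fold limit in genes with ample counts and the same spread for every gene. That test did not cover changes near the fold limit or genes with few counts. Figures were drawn with matplotlib 3.10.9.

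Groups came from the labels, which give every animal its own number, so no paired analysis was made. Animals within a group differed by more than counting error (chi-square per degree of freedom 32.5 to 173), and their number limits precision more than depth. The highest values were those of the pairs with LPS 16h animal 029, at 127 to 173, against 72.2 to 84.5 among the other LPS 16h animals. Alternatives were 2 other scalings, 2 other filters, a prior count of 0.5, limma-voom, a fit of the compared groups alone, no minimum fold change, and leaving out each animal. The members and gene lists were chosen with earlier results of these data known. Named genes were all 9 members, up to 4 genes of each other list with the largest called change against preterm controls, and the 10 genes most like the member mean. The tested regulators of the AT1 fate and CLDN4 were also named. Gene coordinates of another rhesus assembly (RefSeq) were used only to find genes that overlap the members, and no sequences were used.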

Additional observations from a re-analysis of the deposited data

Results flagged for a closer look

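The difference from preterm controls was not the same at the 2 times after LPS in 7 of the 9 AT1 genes, by the direct test of LPS 16h against LPS 5d animals (limma, adjusted p under 0.05 over all genes and a difference of at least 2-fold). CAV1 passed the same adjusted p (-0.94, adjusted p = 0.000213) and not the fold limit. Every LPS 16h animal was below every LPS 5d animal in each of the 7 genes. On the log2 scale LPS 16h minus LPS 5d was -5.13 for MS4A15, -2.83 for AQP5, -2.11 for RTKN2, -1.89 for CLIC5, -1.33 for EMP2, -1.15 for AGER and -1.01 for HOPX. MS4A15 had 2 to 16 counts per library at 16 hours. RTKN2 was on opposite sides of the preterm controls at the 2 times, with -1.18 at 16 hours and 0.93 at 5 days. The LPS 16h libraries were all deeper than the LPS 5d libraries, and the ages of the groups met only at 129 days at treatment and 131 days at delivery. The part of depth and age was not tested. Among 18 sets of 4 animals, the preterm control and LPS 16h animals of each gene, 0 had an animal far from the others by Dixon's test. With 4 animals that test flags only an extreme gap, so no conclusion is drawn from it. AQP5 of LPS 16h animal 029, at 41.0 CPM beside 17.0 CPM in the next animal, was not flagged.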

How the results depend on the processing

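No paired analysis was possible because the groups share no replicate numbers. The 7 AT1 genes called lower at LPS 16h against preterm controls were called in all alternatives and with each animal left out. With libraries scaled by totals alone, the median of all genes moved from -0.09 to -0.29 in that comparison and from -0.04 to -0.22 for LPS 16h against LPS 5d. All-gene calls then went from 1583 higher and 1174 lower to 1258 and 1936, and from 1524 and 1278 to 1163 and 1899. The member medians became -1.69 and -1.52, and that for LPS 5d against term -0.42. PDPN, not called, turned to -0.11 and -0.0035.

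The count of members called at term was 1 with a prior count of 0.5 and 0 when only the 2 groups entered the fit, and it was 1 to 2 with an animal left out. For MS4A15 at term the adjusted p was 0.0115 to 0.057 over the settings that kept all animals. Without a minimum fold change, 2 members were called at LPS 5d and 4 at LPS + Beta-Ac, and by that rule leaving out an animal gave 2 in every fit at LPS 5d and 1 to 3 at LPS + Beta-Ac. With the fold limit kept, leaving out an animal gave 0 to 1 in each. Limma-voom called 1 member in LPS + Beta-Ac against term animals, MS4A15 (-3.09, adjusted p = 0.0349, range 0.0349 to 0.281). With an animal left out, the member median for LPS 5d against term ran from -0.41 to -0.30.

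For LPS 16h against LPS 5d, HOPX lost its call with median-of-ratios scaling (-0.99), and CAV1 was called with totals alone (-1.13) and without LPS 5d animal 240 (-1.03). These members, none called, changed sign with an animal left out. At term EMP2 ran from -0.35 to 0.16, and at LPS 16h PDPN from -0.037 to 0.28. At LPS 5d PDPN ran from -0.22 to 0.013 and CLIC5 from -0.14 to 0.021. At LPS + Beta-Ac AGER ran from -0.054 to 0.58, AQP5 from -0.38 to 0.64 and MS4A15 from -0.50 to 0.98. For LPS + Beta-Ac against LPS 5d AGER ran from -0.49 to 0.17 and AQP5 from -0.79 to 0.23, and for LPS 5d against term CAV1 from -0.56 to 0.0075 and EMP2 from -0.32 to 0.19. The cause of these changes was not tested. Groups of 2 to 4 animals limit the smaller differences, and counts limit MS4A15 at LPS 16h.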

Other observations

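The genes of neighbouring cell types had their own order over the groups. SFTPA1, a surfactant protein of AT2 cells, was called higher at LPS 5d and at LPS + Beta-Ac, where it averaged 8693 CPM against 1563 CPM in preterm controls (log2 fold change 2.47, limma adjusted p = 0.0104). ELF3, an epithelial transcription factor, rose at LPS 5d from 105 to 269 CPM (log2 fold change 1.36, limma adjusted p = 0.00565). LGALS3, a gene of the transitional epithelial list that macrophages also make, had its highest difference at LPS + Beta-Ac (1.53, limma adjusted p = 0.00318). It was the called gene among the 6 tested on that list, of which 4 were higher and 2 lower there. In the same comparison 9 of 10 myeloid genes were called higher, and their part in the LGALS3 value was not tested.

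Of 8 fibroblast genes 3 were called lower at term, where 0.953% of all genes were. They included COL1A1 and COL1A2, the chains of collagen I, at -1.58 and -1.25 on the log2 scale. Among T and NK cell genes, 5 of 8 were called higher at LPS + Beta-Ac, including CD3D (1.41), CD2 (1.20) and PRF1 (1.13), while GZMB had its largest difference at LPS 16h (1.89). The monocyte receptor CD14 and the integrin chain ITGAM rose by 4.08 and 3.49 on the log2 scale at LPS 16h.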
